A study of Mus musculus with 4 samples.

Results

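Cytoplasmic ribosomal protein genes were examined in single-cell RNA sequencing (scRNA-seq) counts of mouse thymocytes. Members were all gene symbols in the files that start with Rpl or Rps followed by a number, with the usual letter endings, together with Rplp0, Rplp1, Rplp2 and Rpsa. Kinases of the Rps6k family and pseudogenes with a "-ps" name were left out. The rule gave 84 of 21926 genes, of which 52 encode proteins of the large (60S) subunit and 32 proteins of the small (40S) subunit. The rule used names only and no measured value. Of the members, 82 had at least 50 UMIs (unique molecular identifiers, each a tag of 1 captured transcript) over the T cells of both libraries, and 1 member, Rpl10l, had 0 UMIs.

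The study asked how the translation factor eIF4G2 acts in T cell development, and compared the thymus of 1 WT mouse with that of 1 Eif4g2 cKO mouse, both 5 weeks old and labelled female and of the same batch. The WT mouse carried 2 floxed Eif4g2 alleles without Cre (library W1). The Eif4g2 cKO mouse carried the same floxed alleles with a CD4-Cre transgene (library K2), which is active from the late DN to DP transition onward, so that earlier DN cells keep the intact gene. Thymocytes were not sorted, and droplet capture with 3′ tags on the DNBelab C4 system gave 1 library per genotype. With 1 mouse per genotype no test was possible, and every interval given here is a 95% interval for counting error only, which does not cover differences between mice or between library preparations.

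Ribosomal proteins assemble with ribosomal RNA into the 2 subunits of the ribosome, and their mRNAs are among the most abundant of a growing cell. Many of these mRNAs begin with a 5′ terminal oligopyrimidine (TOP) tract, a C followed by a run of C and T, through which the mTOR pathway controls their translation. In the thymus, large cycling DN cells and cells that leave the small resting DP stage are known for high biosynthetic activity, and Rpl22 and its paralog Rpl22l1 are known for their part in early T cell development. Levels are given as CPM, counts scaled to the UMIs of the same class and library (1000000 in all). Each transcript yields 1 tag near its 3′ end, so CPM were not divided by transcript length.

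The letters around the annotated first base of the transcript are shown for 8 members, because a TOP tract is the feature that these genes are known to share. Each line gives 30 bases, 5′ to 3′ on the strand of the gene, from 12 bases before the annotated first base, and capitals mark the unbroken run of pyrimidines that holds that base or, where it is a purine, the base alone (RefSeq, GRCm38.p6). The windows lie at chr4:86857350-86857379 (minus strand) for Rps6, chr2:39005114-39005143 (minus) for Rpl35, chr7:141447639-141447668 (plus) for Rplp2, chr11:114668568-114668597 (plus) for Rpl38, chr7:4792953-4792982 (plus) for Rpl28, chr7:118116130-118116159 (minus) for Rps15a, chr3:28805496-28805525 (plus) for Rpl22l1 and chr10:128626489-128626518 (minus) for Rps26.
Rps6: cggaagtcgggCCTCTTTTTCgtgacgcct
Rpl35: ccccgCCCTTTCCTCTTTCTCTCgaaccag
Rplp2: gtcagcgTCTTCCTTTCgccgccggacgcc
Rpl38: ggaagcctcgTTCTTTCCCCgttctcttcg
Rpl28: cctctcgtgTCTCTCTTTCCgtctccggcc
Rps15a: tctttctgccaTCTTCCCTCgccggtgagt
Rpl22l1: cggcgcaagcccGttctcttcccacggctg
Rps26: gggcaagccgccGgatcctctttcgagtct
In the first 6 windows the annotated first base is a C with at least 4 pyrimidines after it. In Rpl22l1 and Rps26 it is a G, and a C with at least 4 pyrimidines after it starts within 5 bases. The 8 windows were picked and hold these letters more often than the promoters of all members. Of the members, 64 had a promoter in the table, and 13 of their 76 promoters (17.1%) had these letters at the annotated first base, against 810 of 32775 other promoters (2.47%). With a start within 5 bases, on the strand of the gene, the shares were 40.8% and 18.3%. A match is a description of the letters and shows neither where transcription starts in these cells nor how the mRNA is translated.

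The tables held 10349 barcodes, of which 10347 were kept, 6012 from WT and 4335 from Eif4g2 cKO, with 18352386 and 18056277 UMIs and at least 1000 UMIs per barcode. Clusters built without the members were named from marker genes and are therefore "-like" classes. The DP-like class was held by different clusters in the 2 libraries: cluster T0 had 86.3% of the class in WT but 10.01% in Eif4g2 cKO, and cluster T1 8.65% and 87.4%. In the cycling-like class, cluster T3, with median cells of 7147 and 7667 UMIs, had 29.3% of the class in WT but 60.0% in Eif4g2 cKO. Eif2s3y, Uty and Kdm5d, which are Y-linked, had 1036, 1047 and 424 UMIs in WT T cells against 0, 1 and 0 in Eif4g2 cKO T cells, and Ddx3y had 1401 and 508, so the WT library goes against its label of female. Eif4g2 itself stood at 226 CPM in WT T cells and at 274 CPM in those of Eif4g2 cKO, and at 261 and 522.6 CPM in DP-like cells. It was lower in Eif4g2 cKO in cycling-like cells, at 217 and 186 CPM, and higher in every other class. Where the 3′ tags lie relative to the deleted part of the gene was not examined, so these counts do not check the deletion. Of the barcode names, 1055 occur in both libraries, and these names are cell numbers rather than sequences.

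The members took a large share of all UMIs, and the share differed between the stages. Summed over T cells, they held 25.1% of the UMIs in WT and 31.9% in Eif4g2 cKO. In WT the share was lowest in DP-like cells at 17.5% (95% interval 17.45 to 17.51), followed by early post-selection-like cells at 23.4%, cycling-like cells at 27.9%, mature SP-like cells at 32.6% and DN-like cells at 34.5%. In Eif4g2 cKO the corresponding shares were 24.1%, 30.7%, 33.5%, 39.6% and 38.6%. In these sums, which were not matched for depth, DP-like cells stood lowest in both libraries. Mature SP-like and DN-like cells stood highest and changed places. Erythroid-like cells, which fill up with globin mRNA, held 2.06% in WT (46 cells) and 0.910% in Eif4g2 cKO (4 cells).

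**Figure D1:**
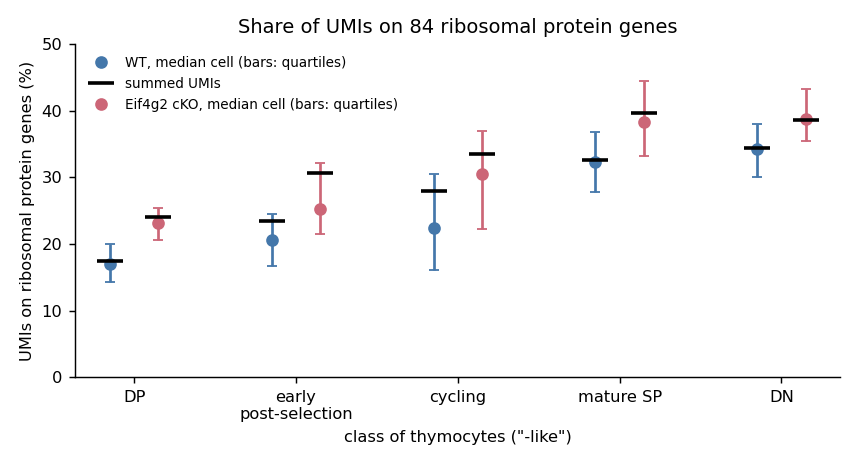
Share of UMIs on the 84 ribosomal protein genes (y axis, percent) in 5 classes of thymocytes (x axis). Points show the median cell of each library with quartiles over cells, and black bars show the share of the summed UMIs, which runs from 17.5% in DP-like WT cells to 39.6% in mature SP-like Eif4g2 cKO cells.

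The spread over single cells was wide in every class. In DP-like cells the median cell had 17.0% of its UMIs on the members in WT (quartiles 14.3 and 20) and 23.1% in Eif4g2 cKO (20.6 and 25.4), so the quartile ranges did not overlap. Within each DP-like cluster they did overlap. In WT and Eif4g2 cKO the ranges were 13.9 to 19.1 and 16.7 to 22.6 in T0. They were 17.7 to 22.1 and 21.05 to 25.55 in T1, and 19.45 to 23.5 and 21.7 to 27.3 in T8. In mature SP-like cells the medians were 32.3% (27.8 and 36.9) and 38.3% (33.1 and 44.4), with overlapping quartile ranges. In DN-like cells they were 34.2% (29.99 and 38.0) and 38.8% (35.45 and 43.3), and the quartile ranges overlapped too. In DP-like cells the share also followed the number of UMIs per cell. In WT it went from 16.4% in 1966 cells of 1000 to 1500 UMIs to 19.6% in 117 cells of 3000 to 5000 UMIs. In Eif4g2 cKO it went from 22.3% in 1284 cells to 28.45% in 158 cells. At matched depth the Eif4g2 cKO cells had the higher share in each of these bins. In cycling-like cells the 2 libraries lay close together in cells of 1000 to 1500 UMIs, at 15.3% in 48 WT cells and 15.4% in 24 Eif4g2 cKO cells, and apart in cells over 10000 UMIs, at 32.6% and 37.55%. DN-like and mature SP-like cells over 10000 UMIs had a lower share than those of 3000 to 5000 UMIs in both libraries. The DN-like medians went from 35.1% to 33.9% in WT and from 40% to 37.6% in Eif4g2 cKO. The mature SP-like medians went from 34.7% to 32.9% and from 43.8% to 38.4%.

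**Figure D2:**
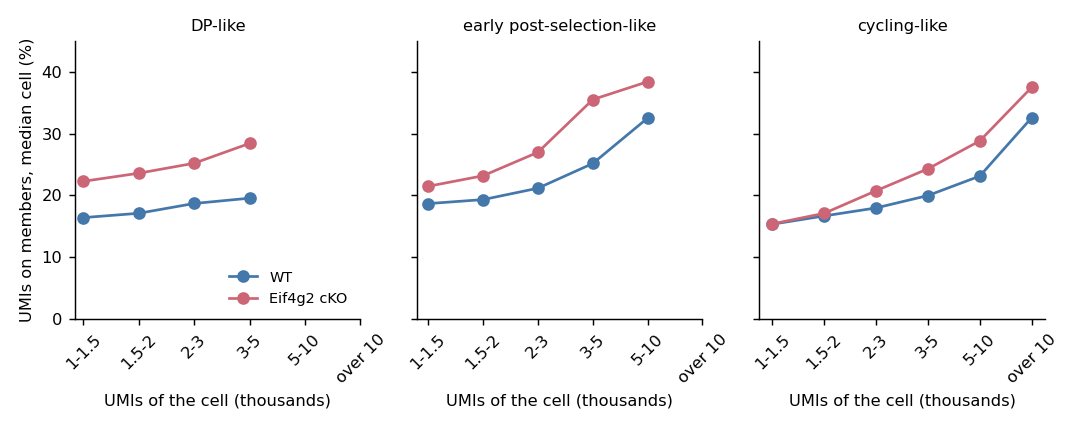
Share of a cell's UMIs on ribosomal protein genes (y axis, percent, median cell) by the number of UMIs of the cell (x axis, in units of 1000) in DP-like, early post-selection-like and cycling-like cells, for bins of at least 20 cells. The share goes up with depth in both libraries, and the lines of the 2 libraries meet in the shallowest cycling-like cells at 15.3% and 15.4%.

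In sums not matched for depth, most members shared the low point at the DP-like stage. Between mature SP-like and DP-like cells the summed members differed by 0.90 on the log2 scale in WT and by 0.72 in Eif4g2 cKO. Of 81 members with at least 50 UMIs over both classes, 69 were more than 0.5 higher in mature SP-like cells in WT and 55 in Eif4g2 cKO, and 0 were more than 0.5 lower in either library. Over all genes, 12.4% lay more than 0.5 higher and 51.3% more than 0.5 lower in WT, with a median of -0.52, and in Eif4g2 cKO the shares were 8.20% and 56.6%. Between DN-like and DP-like cells the summed members differed by 0.98 in WT and 0.68 in Eif4g2 cKO, with 73 and 58 of 81 members more than 0.5 higher and 0 lower, against 14.6% higher and 51.7% lower over all genes in WT and 12.4% and 52.6% in Eif4g2 cKO. Cycling-like cells were 0.67 and 0.48 above DP-like cells, and early post-selection-like cells 0.42 and 0.35 above them. At matched depth below 5000 UMIs, the order of cycling-like and DP-like cells was mostly reversed. At 2000 to 3000 UMIs the median cycling-like cell had 17.98% of its UMIs on members in WT and 20.8% in Eif4g2 cKO. The median DP-like cell had 18.7% and 25.2%. At 3000 to 5000 UMIs the medians were 19.99% and 24.3% in cycling-like and 19.6% and 28.45% in DP-like cells.

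Among the 80 members with at least 100 UMIs in each class and library, the share of the member sum varied most over the 5 classes for Rps27l, Rpl22l1, Rpl36a, Rps12 and Rps2. Rps27l, a p53-inducible paralog of Rps27, made up 0.0655% of the sum in mature SP-like and 0.206% in cycling-like WT cells, and 0.0704% and 0.191% in the same classes of Eif4g2 cKO. Rps12, a small subunit protein, was at 1875 CPM in DP-like and 5281 CPM in mature SP-like WT cells, and at 2659.8 and 8259 CPM in Eif4g2 cKO. Rps2 was at 1377 and 4023 CPM in the WT classes and at 2137 and 5195 CPM in the Eif4g2 cKO classes. The share of Rps27 was highest in DP-like cells (1.74% in WT and 1.98% in Eif4g2 cKO) and lowest in cycling-like cells (1.02% and 1.23%), an order that 7 of the 80 members had in both libraries (Rpl9, Rpl17, Rpl18, Rpl30, Rpl34, Rps9 and Rps27). The most abundant members by UMIs over all T cells included Rpl41, Rps14, Rps16 and Rplp1, and Rpl41, which encodes the shortest ribosomal protein, reached 11941 CPM in mature SP-like WT cells and 14481.5 CPM in mature SP-like Eif4g2 cKO cells.

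The summed level of the members was higher in Eif4g2 cKO than in WT in each class as named here. The log2 ratio of their summed CPM, Eif4g2 cKO over WT, was 0.46 in DP-like cells (95% interval 0.460 to 0.469), 0.39 in early post-selection-like, 0.28 in mature SP-like, 0.27 in cycling-like and 0.16 in DN-like cells, and 0.35 over all T cells. Large and small subunit members moved alike, with log2 ratios of the sums of 0.46 and 0.47 in DP-like and 0.27 and 0.29 in mature SP-like cells. The ratio was smaller within single clusters. In the DP-like clusters T0, T1 and T8 it was 0.23, 0.29 and 0.23, and in the cycling-like clusters T3, T4 and T6 it was 0.14, 0.04 and 0.05, each below the value of its class. The T cell cluster T9, which got no class name and had 55 and 14 cells, had a ratio of 0.00 (-0.018 to 0.023). With each library clustered alone, the ratio in cycling-like cells was 0.01. In DN-like cells of 1000 to 3000 UMIs, 16 in WT and 7 in Eif4g2 cKO, the share of UMIs on members was 32.1% in WT and 30.6% in Eif4g2 cKO. Of these Eif4g2 cKO cells, 1 had a share of only 3.93%. In the bin of 2000 to 3000 UMIs the median cell had 30.95% in WT and 35.25% in Eif4g2 cKO. Giving the WT classes the weights they have in Eif4g2 cKO changed the ratio over all T cells from 0.35 to 0.30.

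Counts of members were set against those of all genes. In DP-like cells 35 of 81 members were more than 0.5 higher in Eif4g2 cKO and 0 more than 0.5 lower, while over all 8866 genes with at least 50 UMIs 8.22% were higher and 30% lower. In early post-selection-like cells 26 of 81 were higher and 0 lower (all genes 7.45% and 34.2%), in cycling-like cells 17 and 0 (3.27% and 35.3%), in mature SP-like cells 15 and 0 (9.76% and 38.6%) and in DN-like cells 12 and 0 (10.5% and 25.8%). Over all T cells 19 of 82 were higher and 1 lower (5.19% and 41.2%), the latter being Rpl39l with 33 and 19 UMIs. Within single clusters the counts were closer to the background. In the DP-like clusters 12 of 81 members were higher in T0 (all genes 11.3% higher and 20.6% lower), 21 of 81 in T1 (15.1% and 22.7%) and 12 of 80 in T8 (8.89% and 18.2%), and 0 were lower. In the cycling-like clusters 8 of 81 were higher in T3 (5.37% and 30.9%), 7 in T4 (7.44% and 30.6%) and 5 in T6 (7.90% and 17.2%), and 1 was lower, in T4. In the unnamed cluster T9, 5 of 80 were higher and 0 lower (21.2% and 18.4%). The shares of higher members in T0, T4 and T6 were near those of all genes. The median over all genes lay below 0 in each class, from -0.09 in DN-like to -0.28 in cycling-like cells and at -0.35 over all T cells. Relative to that median the members stood 0.65 higher in DP-like, 0.61 in early post-selection-like, 0.55 in mature SP-like, 0.54 in cycling-like and 0.31 in DN-like cells.

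**Figure D3:**
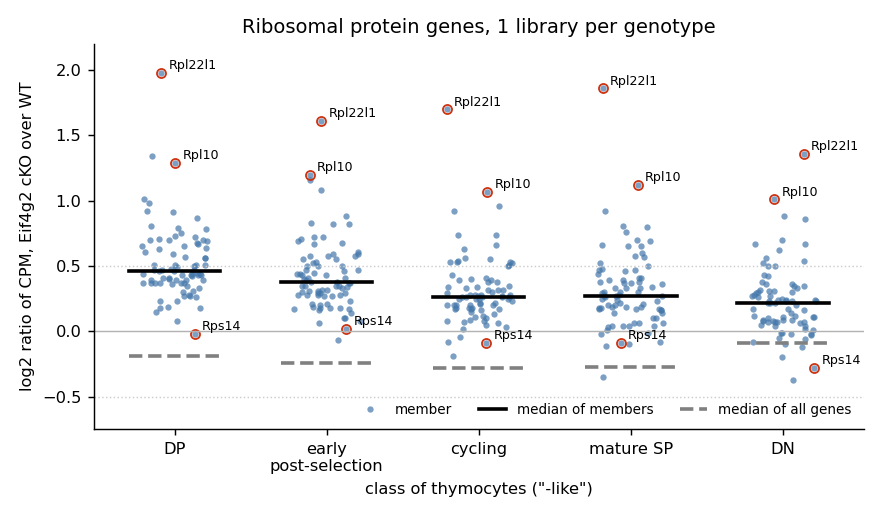
Log2 ratio of CPM, Eif4g2 cKO over WT (y axis), of each member with at least 50 UMIs in 5 classes (x axis), with the median of the members (black) and of all genes (dashed), and dotted lines at 0.5 and -0.5. Rpl22l1 stands highest in each class, from 1.36 in DN-like to 1.98 in DP-like cells, and Rps14 stands near or below 0.

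The ratios differed with genomic span. Genes of short genomic span had higher ratios than long ones: in DP-like cells 830 other genes of at most 5 kb had a median of 0.17, against -0.77 for 1037 genes over 100 kb, and in mature SP-like cells the medians were 0.09 and -1.08. Members are short, with a median span of 3.33 kb against 24.45 kb for other genes with at least 50 UMIs. The 64 members of at most 5 kb had medians of 0.47 in DP-like and 0.29 in mature SP-like cells, above the other short genes, and 0.22 in DN-like cells, where other short genes had 0.10. The part of gene span in the ratios of the members was not tested.

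Rpl22l1 differed most between the libraries in each class. This gene encodes a paralog of Rpl22 and lies on chromosome 3 (chr3:28805436-28807424, plus strand, GRCm38). WT DP-like cells had 84.5 CPM of it (95% interval 76.8 to 92.7) and Eif4g2 cKO DP-like cells 333 CPM (314 to 353), for a log2 ratio of 1.98 (1.82 to 2.14). In mature SP-like cells it was at 319 and 1159 CPM, a log2 ratio of 1.86 (1.70 to 2.02), and in early post-selection-like cells at 217 and 662 CPM, a ratio of 1.61. The lowest of the 5 ratios was that of DN-like cells, at 342 and 880.5 CPM and 1.36 (1.14 to 1.59). Within the 9 named T cell clusters the ratio ran from 1.27 in T4 to 1.86 in T5. In the unnamed cluster T9, with 55 and 14 cells and Ccl5, Nkg7 and Cxcr6 among its leading genes, it was 0.43 (-0.26 to 1.09).

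Rpl22 differed far less between the libraries. Its level was 1219 CPM in DP-like cells of WT against 1685 CPM in those of Eif4g2 cKO, a log2 ratio of 0.47 (0.42 to 0.52), and at 2322 and 2607 CPM in mature SP-like cells, a ratio of 0.17 (0.08 to 0.25). As a share of the UMIs of both paralogs, Rpl22l1 had 6.48% in WT (5.91 to 7.09) and 16.5% in Eif4g2 cKO (15.6 to 17.4) DP-like cells, and 12.1% (11.2 to 13.0) and 30.8% (28.8 to 32.8) in mature SP-like cells. In DN-like cells the shares were 13.5% and 24.6%. In both libraries the share was lowest in DP-like cells, and in each class it was higher in Eif4g2 cKO with intervals that did not overlap. Rpl22l1 has 2 near-identical copies in the annotation, neither of them among the counted genes, and Rpl22 has none.

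**Figure D4:**
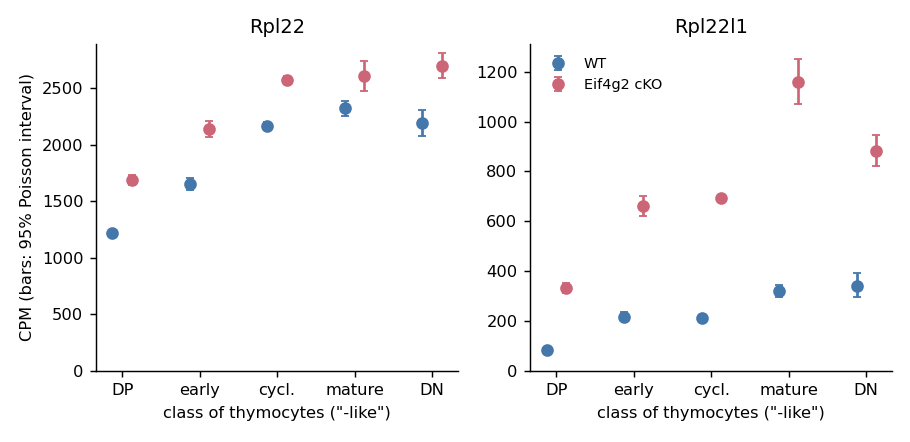
CPM of Rpl22 (left) and Rpl22l1 (right) by class (x axis) in both libraries, with 95% Poisson intervals for counting error. Rpl22l1 goes from 84.5 to 333 CPM in DP-like and from 319 to 1159 CPM in mature SP-like cells, and Rpl22 from 1219 to 1685 and from 2322 to 2607 CPM.

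The next highest ratios in DP-like cells belonged to Rpl35 (203 and 515 CPM in WT and Eif4g2 cKO, log2 ratio 1.34), Rpl10 (456 and 1112 CPM, 1.29), Rpl39 (1374 and 2773 CPM, 1.01) and Rpl36a (505 and 994 CPM, 0.98). In mature SP-like cells they belonged to Rpl10 (943 and 2044 CPM, 1.12), Rpl39 (3553 and 6732 CPM, 0.92), Rpl35 (502 and 882 CPM, 0.81) and Rpl13a (565 and 982 CPM, 0.80). All of these encode large subunit proteins, and Rpl10 is known for its place near the peptidyl transferase center. The lowest in DP-like cells were Rps14 (6406 and 6326 CPM, -0.02), Rpl4 (1185 and 1256 CPM, 0.08), Rps26 (3063 and 3398 CPM, 0.15), Rps9 (4696 and 5317.5 CPM, 0.18) and Rpl34 (3327 and 3779 CPM, 0.18). In mature SP-like cells the lowest were Rpl36al (955 and 751 CPM, -0.35), Rpl34 (5533 and 5129 CPM, -0.11), Rpl4 (2008 and 1879 CPM, -0.10), Rps14 (8272 and 7751 CPM, -0.09) and Rpl37 (5769.5 and 5448 CPM, -0.08). Rpl4, Rpl34 and Rps14 were among the lowest in both classes. Within the DP-like clusters Rps14 was lower in Eif4g2 cKO, at -0.23, -0.21 and -0.24 in T0, T1 and T8.

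Several of the highest members share their sequence with other counted genes. A search with the last 300 bases of each member's longest coding transcript found a near-identical copy (at least 95% identity over at least 100 bases) in GENCODE M21 for 50 of the 84 members. Matches of Rpl7l1 to 5 genes that are not ribosomal protein genes, each of about 100 bases, were set aside after they were seen. In T cells 6 other pairs had a copy with at least 1000 UMIs in a library, and over all T cells the copy was lower and the member higher in Eif4g2 cKO in each of them. In DP-like cells the intervals of the copies of Rpl10 (-0.03) and Rpl35 (-0.02) included 0. In WT T cells Rpl35 had 6702 UMIs and its copy Gm2000 59074, and in Eif4g2 cKO T cells they had 14550 and 53110. Rpl10 had 13022 and its copy Rpl10-ps3 22886 in WT, and 29365 and 20458 in Eif4g2 cKO. For these genes reads cannot be assigned to 1 locus with certainty, so the value of the member alone is uncertain.

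The share of a pair's UMIs on the copy was nearly the same in each class of a library and differed between libraries. For Rpl10-ps3 it ran from 63.3% to 64.8% over the 5 WT classes and from 39.3% to 41.6% over the 5 Eif4g2 cKO classes. For Rps27rt, the copy of Rps27, it was 38.3% in DP-like and 38.8% in mature SP-like WT cells, and 20.4% and 19.7% in Eif4g2 cKO. For Rpl9-ps6 it was 27.7% in WT against 12.2% in Eif4g2 cKO over all T cells. Member and copy together had smaller ratios. In DP-like cells Rpl35 went from 1.34 alone to 0.19 with Gm2000, Rpl10 from 1.29 to 0.60, Rps27 from 0.65 to 0.28 and Rpl9 from 0.73 to 0.45, while Rpl36a went from 0.98 to 0.88 with Rpl36a-ps1 and Rps18 from 0.44 to 0.41 with Gm11361. In mature SP-like cells Rpl35 with Gm2000 had -0.21 and Rps27 with Rps27rt -0.01.

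With the 6 copies added, the log2 ratio of the sum was 0.45 in DP-like and 0.26 in mature SP-like cells, and 32 and 12 members were more than 0.5 higher. The share over all genes was not computed with the copies added. The 34 members without a copy had a ratio of the sum of 0.49 in DP-like and 0.28 in mature SP-like cells, beside 0.39 and 0.22 for the 19 members with 1 to 4 copies and 0.49 and 0.32 for the 31 members with 5 or more. In DN-like cells the 3 ratios were 0.19, 0.07 and 0.21.

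**Figure D5:**
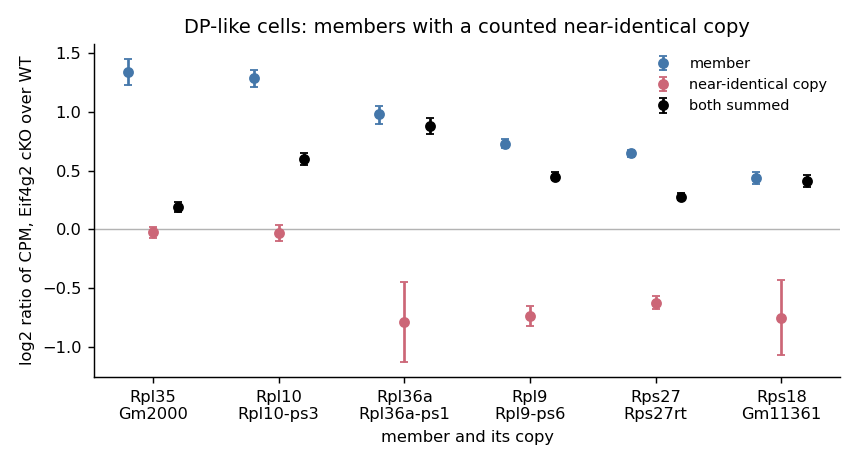
Log2 ratio of CPM, Eif4g2 cKO over WT (y axis), in DP-like cells for 6 members, their counted near-identical copies and both summed, with 95% intervals for counting error. The member lies above 0 and the copy below 0 in each pair, and for Rpl35 the value goes from 1.34 for the member to 0.19 for both.

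The 4 X-linked members, Rpl10, Rpl36a, Rpl39 and Rps4x, lay high in each class. In DP-like cells their ratios were 1.29, 0.98, 1.01 and 0.75, with a median of 0.99 against 0.45 for the members on other chromosomes, and in mature SP-like cells the medians were 0.84 and 0.27. X-linked genes that are no members did not lie as high, with a median of -0.07 over 264 genes in DP-like cells against -0.20 over 8338 autosomal genes, and of -0.06 and -0.28 in mature SP-like cells. Rpl10 and Rpl36a have counted copies (above), while the copies of Rpl39 and Rps4x had at most 2 UMIs in a library or are not among the counted genes. The libraries also differ in Y-linked counts (above), and the part of this in the 4 values was not tested.

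Members with known roles outside the core of the subunits spread over the range. The stalk proteins, which recruit elongation factors, had log2 ratios of 0.51 (Rplp0, 2349 and 3348.5 CPM), 0.42 (Rplp1, 3566 and 4757 CPM) and 0.81 (Rplp2, 1959.8 and 3437 CPM) in DP-like cells, and of 0.57, 0.20 and 0.47 in mature SP-like cells. Rpl5 and Rpl11, which bind Mdm2 as part of the 5S particle, had 0.61 (1513 and 2316 CPM) and 0.37 (2688 and 3483 CPM) in DP-like and 0.33 and 0.20 in mature SP-like cells. Rps6, a target of S6 kinases, had 0.39 (1275.5 and 1675 CPM) and 0.18. Rps19, mutated in Diamond-Blackfan anemia, had 0.91 (1070.5 and 2010.3 CPM) in DP-like and 0.58 (2984 and 4460.3 CPM) in mature SP-like cells. Rps26, another Diamond-Blackfan anemia gene, had 0.15 and -0.02. Rpsa, also known as a laminin receptor, had 0.57 and 0.44, Rpl38, known for its part in the translation of Hox mRNAs, 0.70 and 0.26, and Rpl41 0.36 and 0.28. Each of these values but that of Rps26 in mature SP-like cells had an interval above 0.

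The other paralogs were mostly scarce. Rpl3l, which is known from muscle, had 15 UMIs in WT T cells against 5 in Eif4g2 cKO T cells beside 23335 and 31245 UMIs of Rpl3, and Rpl10l, a testis paralog of Rpl10, had 0 in both. Rpl7l1 stood at 54.2 CPM in WT against 88.5 CPM in Eif4g2 cKO DP-like cells (log2 ratio 0.71, 95% interval 0.47 to 0.94), while Rpl7 had 0.43. Rps27l had 0.78 (0.65 to 0.91) in DP-like cells, at 178 and 307 CPM, and 0.16 (0.10 to 0.21) in cycling-like cells, at 573 and 640 CPM. Rpl36al, the autosomal paralog of Rpl36a, had 57.5% of the pair's UMIs in WT and 45.8% in Eif4g2 cKO DP-like cells, and 39.2% and 23.0% in mature SP-like cells. A symbol Rps4l was not among the genes of the files.

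Lists of genes related to the members differed in direction and size. In mature SP-like cells 9.76% of all genes were more than 0.5 higher and 38.6% more than 0.5 lower, with a median of -0.27. In DP-like cells 8.22% were higher and the median was -0.19, with the share of lower genes given above. The counts of the lists were not tested against these shares. Fau, which encodes a ribosomal protein as a fusion with a ubiquitin-like protein, had a log2 ratio of 0.11 (5409.7 and 5837.5 CPM) in DP-like and of -0.05 in mature SP-like cells. Of 21 other TOP genes, 7 were more than 0.5 higher and 0 lower in DP-like cells (median 0.26), with Tpt1 at 0.45 and the elongation factor Eef1a1 at 0.50, and in mature SP-like cells 3 were higher and 1 lower (median 0.21). The log2 ratio of their sum was 0.38 in DP-like, 0.30 in mature SP-like and 0.30 in DN-like cells, beside 0.46, 0.28 and 0.16 for the members. Of 30 ribosome biogenesis genes with at least 50 UMIs in DP-like cells 6 were higher and 2 lower (median 0.09), and of 22 in mature SP-like cells 0 were higher and 6 lower (median -0.39). The nucleolar gene Ncl had -0.24 and -0.43, and Nop10, a part of the H/ACA particles, 0.73 and 0.47. The 77 mitochondrial ribosomal protein genes measured in DP-like cells had a median of 0.16, with 7 higher and 0 lower, and the 73 measured in mature SP-like cells a median of -0.02, with 9 higher and 7 lower. Of 11 stress and dissociation genes measured in DP-like cells 2 were higher and 1 lower, with Jund at 0.85 and Hspa8 at 0.54, and the mitochondrial share was 0.861% of UMIs in WT and 1.02% in Eif4g2 cKO. The part of the stress genes in the ratios of the members was not tested.

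Antigen-presenting cell-like cells, which are not T cells, were few, at 60 in WT and 25 in Eif4g2 cKO. The members had 25.4% of their UMIs in WT against 28.1% in Eif4g2 cKO, which is 0.15 on the log2 scale (0.12 to 0.17), beside 0.16 in DN-like cells. Taken alone, Rpl10 had a ratio of 0.98 (0.66 to 1.30) there and Rpl35 0.96 (0.27 to 1.62), near their values in T cells. Their copies had -0.31 (-0.66 to 0.03) for Rpl10-ps3 and -0.32 (-0.58 to -0.06) for Gm2000. The rise of Rpl35, from 273 to 531 CPM, was smaller than the fall of Gm2000, from 3246 to 2605 CPM. Rpl35 and Gm2000 together were thus not higher in these Eif4g2 cKO cells. The rise of Rpl10, from 1119 to 2210.5 CPM, was larger than the fall of Rpl10-ps3, from 1849 to 1491 CPM. Rpl22l1 had 36 and 13 UMIs and a ratio of 0.32 (-0.72 to 1.27), and Rpl39 had 0.17 (-0.06 to 0.40), both with intervals that include 0.

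Among 691 other genes with at least 100 CPM in each class and library, the 5 whose log2 CPM over the 10 values of 5 classes and 2 libraries followed the member sum most closely included Eef1b2 (Pearson r = 0.971), Rack1 (0.966), Eef1g (0.934) and Hspe1 (0.901). Eef1b2 and Eef1g are subunits of the elongation factor 1 complex, Rack1 is a scaffold on the small subunit and Hspe1 is a mitochondrial chaperonin. Eef1b2 went from 535 CPM in DP-like to 1526 CPM in mature SP-like WT cells, and from 857 to 2017 CPM in Eif4g2 cKO. The 10 values share 2 libraries, and cells of 1 class share their depth, so the coefficients are a description only.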

How the data were processed

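Thymocytes of 1 WT and 1 Eif4g2 cKO mouse were compared. The authors processed the reads with dnbc4tools (version 2.1.3 in the series text, 3.0 in the file headers) and, per the labels, genome build mm10, and deposited whole-number UMI counts per gene and barcode with no normalization. The oligo libraries hold no values of their own. Cells with at least 50 genes and at most 10% mitochondrial UMIs were kept, and doublets were not removed. Counts were log-normalized to 10000 per cell and clustered with scanpy 1.11.5 (2000 variable genes without the members, a few related genes and Eif4g2, 30 components, 20 neighbours, Leiden resolution 1.0, seed 1), first all cells and then the T lineage. A cluster was named from at least 3 raised markers, with the condition, added after a first clustering, that no other list with at least 3 raised markers had a higher mean fold.

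UMIs were summed per class and library and given as CPM with exact Poisson intervals, log2 ratios with exact conditional binomial intervals and shares with exact (Clopper-Pearson) binomial intervals, all at 95% (scipy 1.17.1). For counts and medians over genes, a 0 was replaced by a floor of 3 UMIs where the other library had more than 3. Ratios of single genes with a count of 0 were left empty. With 1 library per genotype there was no test. Named genes were paralog pairs, 11 members with known roles, the 5 highest and 5 lowest ratios among members with at least 100 UMIs in a library, the 5 most and least abundant members, the 5 whose share of the sum varied most, the 5 genes most like the sum, up to 4 of each related list, and Eif4g2. Other members named were chosen after their values were seen. Some genes under these rules are not reported here. The members and lists were chosen with earlier results of these data known. Positions were taken from GENCODE M21 (GRCm38), which holds 21379 of the 21926 gene identifiers, and copies were searched with blastn 2.17.0. The ratios were tested on simulated counts. Alternatives changed the cell filter, clustering, scaling, count minimum, fold limit and the treatment of copies.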

Additional observations from a re-analysis of the deposited data

Results flagged for a closer look

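For 5 members the log2 ratio of Eif4g2 cKO over WT lay more than 0.1 above 0 in 1 class and more than 0.1 below 0 in another, with counting intervals that exclude 0 on both sides. The difference between the classes was not tested, since each genotype has 1 library. Rpl31 had 0.27 and -0.12, Rpl28 0.23 and -0.10, and Rps26 0.15 and -0.20 in DP-like and DN-like cells. Rpl36al had 0.30 in DP-like cells (684 and 841 CPM) and -0.35 in mature SP-like cells (955 and 751 CPM), and Rpl34 had 0.18 and -0.11 in these classes. Samples far from others of their group could not be searched for with 1 library per group.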

How the results depend on the processing

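No paired analysis was possible because each genotype has 1 library, so that no library could be left out either. The 61 log2 ratios of the summed members under alternatives all lay above 0, from 0.01 to 0.69. The unnamed cluster T9 alone was not among them. The values that moved beyond counting error follow, and the cause was not tested. After a stricter cell filter (1000 to 10000 UMIs, no more than 3% mitochondrial), the ratio was 0.32 over all T cells, 0.19 in DN-like, 0.32 in cycling-like and 0.52 in early post-selection-like cells, where 45 members were higher, and 0 were lower over all T cells. At resolution 0.6 it was 0.55 in early post-selection-like (45 members higher) and 0.30 in mature SP-like cells, and at 1.6 it was 0.38 and 0.27. When the libraries were clustered separately, the ratio was 0.19 in DN-like, 0.01 in cycling-like (6 members higher, 1 lower), 0.45 in DP-like, 0.31 in early post-selection-like and 0.21 in mature SP-like cells. For the stricter filter and the changed clusterings, no share over all genes was set beside the member counts. Whether those counts reflect the members or a shift of all genes was therefore not tested.

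Scaled to the UMIs of other genes, the ratio was 0.48 over all T cells, 0.26 in DN-like, 0.38 in cycling-like, 0.59 in DP-like, 0.54 in early post-selection-like and 0.44 in mature SP-like cells, with 39 members higher over all T cells, 58 in DP-like, 43 in early post-selection-like and 31 in mature SP-like cells. Scaled by the median ratio of all genes, which shifts all values by 0.09 to 0.35, it was 0.69, 0.26, 0.54, 0.65, 0.63 and 0.55 in the same order, with 73 members higher and 0 lower over all T cells and 49, 68, 63 and 47 higher in the last 4. Both scalings shift all genes alike, so the shares of all genes in the main setting do not apply to these counts. As a mean over cells of counts per 10000 it was 0.38, 0.19, 0.34, 0.43, 0.35 and 0.26, with 0 members lower over all T cells. A minimum of 20 UMIs gave 2 lower members over all T cells and 1 in cycling-like cells, and one of 500 UMIs gave 0 over all T cells. The counts from the mean over cells and from these minimums also have no share over all genes beside them. A limit of 0.25 gave 60, 31, 46, 73, 63 and 45 higher members (all genes 14%, 23.7%, 10.2%, 20.1%, 18% and 20.8%), 2 lower in DN-like and 1 lower in mature SP-like cells (39.5% and 51.4%).

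Alternatives chosen after seeing the data were the copies, the single clusters and the naming condition. With the counted copies the ratio was 0.33, 0.14, 0.25, 0.45, 0.37 and 0.26, and for members without a copy 0.36, 0.19, 0.28, 0.49 and 0.41 in the first 5. Single clusters gave 0.23 (T0, 12 higher), 0.29 (T1, 21), 0.23 (T8, 12), 0.14 (T3, 8), 0.04 (T4, 7 higher and 1 lower) and 0.05 (T6, 5), where 11.3%, 15.1%, 8.89%, 5.37%, 7.44% and 7.90% of all genes were higher. With the WT classes weighted as in Eif4g2 cKO, the ratio over all T cells was 0.30. In cells of 1000 to 3000 UMIs the share of UMIs on members was 18.5% in WT and 23.2% in Eif4g2 cKO over all T cells, 32.1% and 30.6% in DN-like (few cells), 17.6% and 19.4% in cycling-like, 17.3% and 22.9% in DP-like, 20.2% and 24.3% in early post-selection-like and 29.1% and 32.5% in mature SP-like cells. Promoters with the letters starting within 5 bases were 40.8% of the members' and 18.3% of the others.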
